A study of Mus musculus with 8 samples.

Results

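The MHC class I pathway was described here through 10 genes, taken by their symbols from 25157 genes that the 6 deposited tables share: the heavy chains H2-K1, H2-D1, H2-Q4, H2-Q6 and H2-Q7, the light chain B2m, the peptide transporter genes Tap1 and Tap2, the loading factor gene Tapbp and the transactivator gene Nlrc5. They were picked out by a rule on symbols that uses no measured value, but the set was drawn up with earlier results of these data known, and all 10 passed the filter on low values in every comparison. The RNA came from CD11b+/CD45inter cells, the sort gate for microglia, which are the macrophages that live in brain tissue. Every mouse carried floxed alleles of Prmt1, which encodes an arginine methyltransferase, and according to the study's methods both genotypes received tamoxifen. PRMT1Cx3cr1-KO mice also carried a Cx3cr1 Cre-ERT driver, active in microglia and other cells that express Cx3cr1, so the driver and the loss of Prmt1 cannot be told apart. CPZ (cuprizone), which binds copper and strips myelin by killing the oligodendrocytes that make it, was given at 0.2% of the diet, and the CPZ samples were split by surface CD11c, an integrin that marks activated microglia. The 8 libraries formed 5 groups: PRMT1Cx3cr1-KO CPZ CD11c low (1 library), PRMT1FL CPZ CD11c high (1), PRMT1FL CPZ CD11c low (1), PRMT1Cx3cr1-KO normal diet (2) and PRMT1FL normal diet (3). The labels give 5 weeks for the CPZ libraries and 11 weeks for the normal-diet libraries, whose titles name no CD11c gate, so each diet comparison also differs by gate and week label. Nothing in the labels says whether replicates came from separate animals, so p-values measure only the spread between these libraries, which may be technical.

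MHC class I molecules show peptides from inside the cell to CD8 T cells and natural killer cells. Each consists of a heavy chain, the light chain beta-2 microglobulin (B2m) and a peptide, which the proteasome cuts, the transporter Tap1/Tap2 carries into the endoplasmic reticulum and tapasin (Tapbp) helps to load. H2-K1 and H2-D1 encode the classical heavy chains, H2-Q4, H2-Q6 and H2-Q7 encode nonclassical (Qa, class Ib) chains, and Nlrc5 encodes a coactivator that interferon induces and that sits on an SXY module in class I promoters. Microglia are known to raise the pathway when they meet interferon.

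The deposited values were turned back into whole reads, which totalled 1577315 in the PRMT1FL CPZ CD11c high library and 2480049 to 3512818 in the others. In the text, "scaled reads" are these reads divided by a median-of-ratios size factor fitted over the 8 libraries. All 8 microglia markers had reads in every library, with a summed level between 9258 and 16274 scaled reads. Prmt1 had 80.4 scaled reads in PRMT1Cx3cr1-KO CPZ CD11c low against 117 in PRMT1FL CPZ CD11c low, and 60.4 and 82.1 in PRMT1Cx3cr1-KO normal diet against 85.7, 91.2 and 90.4 in PRMT1FL normal diet. Neither difference passed the test (log2 fold -0.54 ± 0.26 and -0.32 ± 0.19, SE, limma, adjusted p = 0.252 and 0.64), and a count over the whole transcript need not show a deletion of part of it. Itgax, which encodes CD11c, had 345 scaled reads in PRMT1Cx3cr1-KO CPZ CD11c low, 1871 in PRMT1FL CPZ CD11c high and 656 in PRMT1FL CPZ CD11c low, against 53.3 to 64.3 in PRMT1Cx3cr1-KO normal diet and 50.0 to 78.8 in PRMT1FL normal diet, so both CD11c low gates held more of it than normal-diet microglia. Fewer cells of a type and less RNA per cell cannot be told apart in bulk RNA.

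On normal diet the members spread over a wide range of level per transcript length, given here as RPKM, that is reads corrected for transcript length and for the total of recovered reads. In PRMT1FL normal diet (mean ± SD, n = 3) B2m was at 221 ± 22.8, H2-K1 at 151 ± 13.8, H2-D1 at 137 ± 11.8 and Tapbp at 117 ± 4.10. The transporter genes lay lower, with Tap2 at 47.1 ± 5.06 and Tap1 at 41.8 ± 1.66, below H2-Q4 at 58.6 ± 5.79. H2-Q6 (20.8 ± 2.64), H2-Q7 (5.81 ± 1.88) and Nlrc5 (3.41 ± 0.565) came last. The replicates of H2-K1 and H2-D1 overlapped, as did those of Tap2 and Tap1, while every other pair of neighbours in this order lay apart. In the PRMT1FL CPZ CD11c low library H2-Q6 was at 100.7 RPKM, above Tap1 at 84.0 and Tap2 at 59.3, whereas in PRMT1Cx3cr1-KO CPZ CD11c low it was at 26.4, below Tap1 at 55.2 and Tap2 at 42.2.

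**Figure D1:**
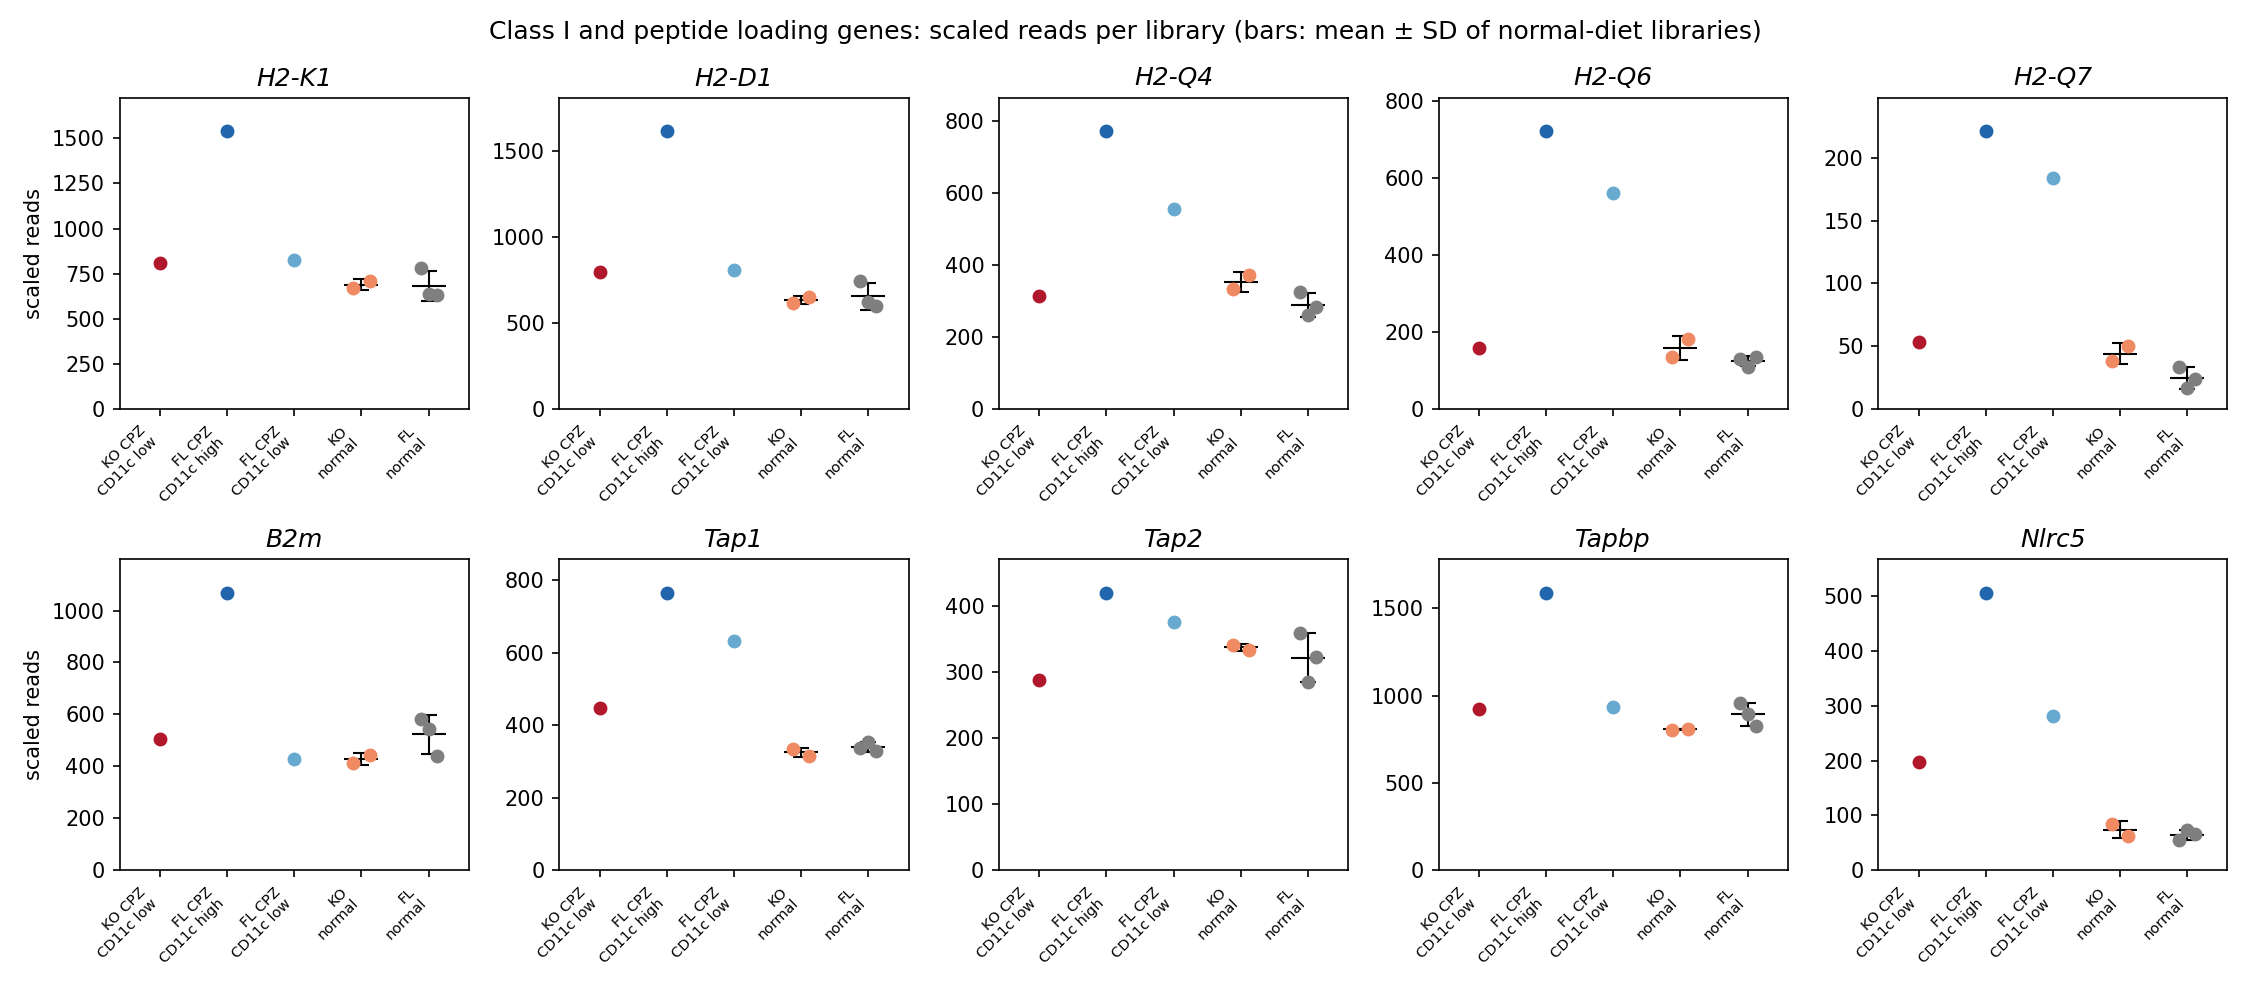
Scaled reads (vertical axis, linear, from 0) of each of the 10 genes in the 8 libraries, by group on the horizontal axis; points are libraries and bars the mean ± SD of the normal-diet groups. H2-Q4, H2-Q6 and H2-Q7 are high in the PRMT1FL CPZ libraries and near the normal-diet level in PRMT1Cx3cr1-KO CPZ CD11c low (H2-Q6 159 against 722 and 561), while H2-K1 and H2-D1 are high in the PRMT1FL CPZ CD11c high library only.

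Duplicate reads had been removed by the authors, so a gene can hold at most about 1 read per base. The gene with the highest density in each library had between 0.813 and 0.919 reads per base. B2m was close to this ceiling. Its recovered reads were 535 in PRMT1Cx3cr1-KO CPZ CD11c low, 551 in PRMT1FL CPZ CD11c high, 578 in PRMT1FL CPZ CD11c low, 526 and 524 in PRMT1Cx3cr1-KO normal diet, and 504, 488 and 542 in PRMT1FL normal diet, on a transcript of 851 bases. They differed by at most 1.18-fold while total reads differed by 2.23-fold, so differences in scaled B2m arise almost wholly from the size factors. H2-K1 (0.35 to 0.68 reads per base), H2-D1 (0.32 to 0.64) and Tapbp (0.29 to 0.46) were in the range where the ceiling shortens differences. H2-Q4 (0.13 to 0.42) and H2-Q6 (0.05 to 0.35) reached that range in PRMT1FL CPZ CD11c low, where both were densest. H2-Q7 (0.01 to 0.16), Nlrc5 (0.01 to 0.06), Tap2 (0.09 to 0.21) and Tap1 (0.10 to 0.29) were farther from it.

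**Figure D2:**
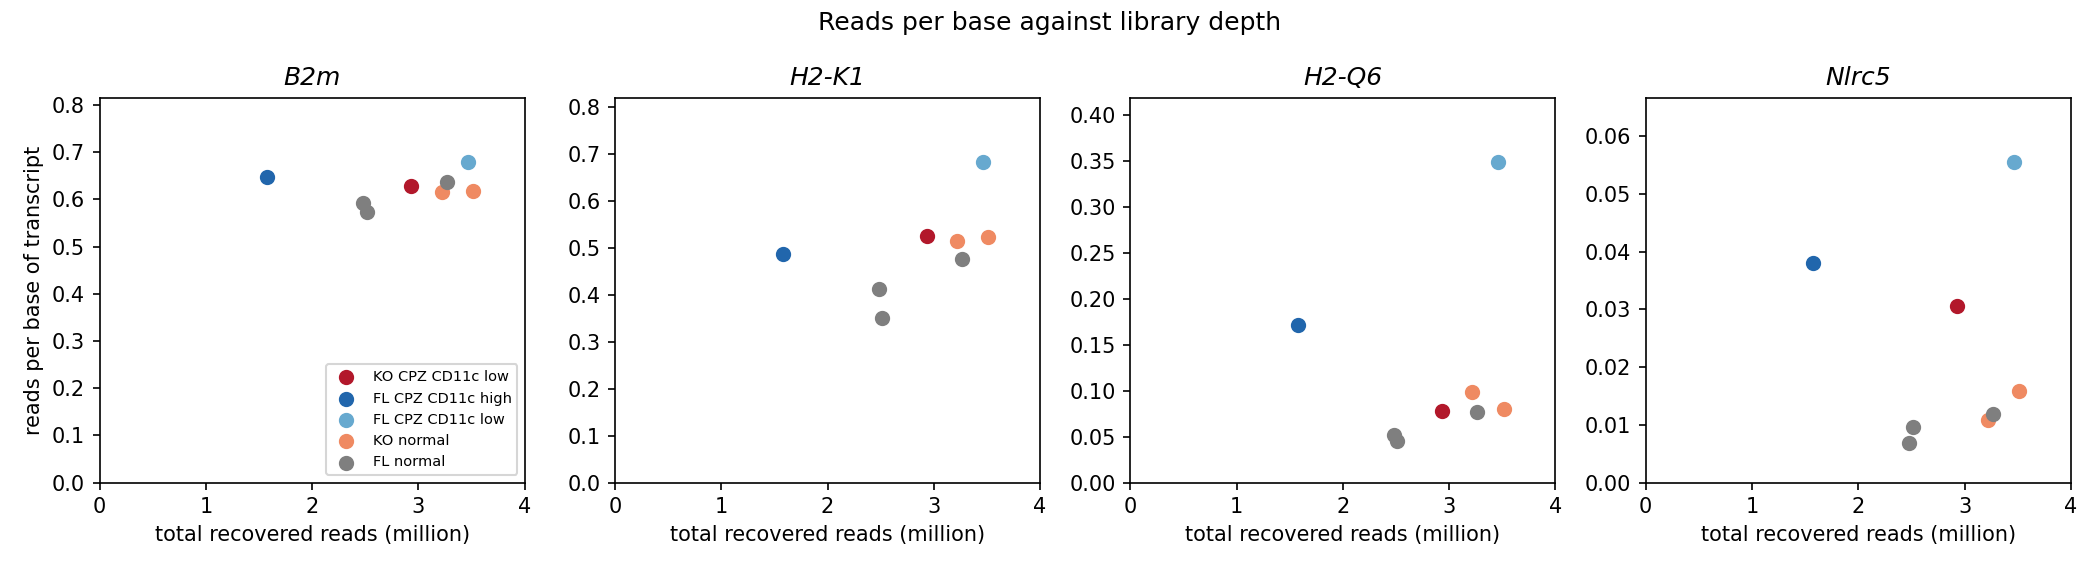
Reads per base of transcript (vertical axis, from 0, a separate scale for each gene) against total recovered reads (horizontal axis) for B2m, H2-K1, H2-Q6 and Nlrc5; each point is a library, coloured by group. B2m stays between 0.57 and 0.68 reads per base at every depth, whereas H2-Q6 ranges between 0.05 and 0.35.

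The heavy-chain genes lie on chromosome 17 (GRCm38): H2-K1 at chr17:33996012-34000333 on the minus strand, and H2-D1 at chr17:35263094-35267497, H2-Q4 at chr17:35379617-35384674, H2-Q6 at chr17:35424850-35430055 and H2-Q7 at chr17:35439155-35443773 on the plus strand. RefSeq promoter windows (GRCm38.p6, 250 bases before to 50 after the start) matched 8 of the 10 members, and short letter strings were searched in them on both strands. The stretches below, of 131 bases each, are shown because they hold the upstream elements known for class I genes, in the heavy chains whose diet response differed between genotypes (H2-Q4, H2-Q6, H2-Q7), in those where no difference was called (H2-K1, H2-D1) and in their partner B2m. Printed 5′ to 3′ on the strand of the gene, capitals mark GGGATTCCC (the class I kappa B site), GAAANNGAA or GAANNGAAA (interferon-stimulated response element, printed as its reverse complement where it lies on the other strand, and the strings can overlap), TGACGC (core of the X2 box of the SXY module) and CCAAT (the Y box, here mostly as ATTGG).
H2-K1, chr17:34000347-34000477, minus strand: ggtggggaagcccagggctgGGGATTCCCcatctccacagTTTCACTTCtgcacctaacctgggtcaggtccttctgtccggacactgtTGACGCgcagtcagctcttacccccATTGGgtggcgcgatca
H2-D1, chr17:35262904-35263034, plus strand: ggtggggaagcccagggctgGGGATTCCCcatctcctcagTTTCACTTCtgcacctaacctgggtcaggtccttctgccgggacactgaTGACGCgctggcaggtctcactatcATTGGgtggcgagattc
H2-Q4, chr17:35379424-35379554, plus strand: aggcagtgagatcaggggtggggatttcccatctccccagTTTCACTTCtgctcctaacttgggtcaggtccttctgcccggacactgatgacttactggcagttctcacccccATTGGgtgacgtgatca
H2-Q6, chr17:35424658-35424788, plus strand: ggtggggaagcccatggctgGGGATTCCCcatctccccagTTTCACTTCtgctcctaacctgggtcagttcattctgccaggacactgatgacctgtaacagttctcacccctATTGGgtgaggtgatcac
H2-Q7, chr17:35439002-35439132, plus strand: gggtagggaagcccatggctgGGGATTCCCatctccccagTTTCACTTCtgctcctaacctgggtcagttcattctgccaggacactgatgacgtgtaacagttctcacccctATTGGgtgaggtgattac
B2m, chr2:122147508-122147638, plus strand: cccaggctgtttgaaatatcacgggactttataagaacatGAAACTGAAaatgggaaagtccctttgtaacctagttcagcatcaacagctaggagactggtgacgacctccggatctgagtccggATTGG
The response element was found in all 5 heavy chains and in B2m, against 14.8% of all 32851 promoter windows in the table. The kappa B string was found in H2-K1, H2-D1, H2-Q6 and H2-Q7, against 0.353% of all windows. TGACGC stood in this module in H2-K1 and H2-D1 (7.4% of all windows hold it somewhere), and in H2-Q4 only downstream of the start, outside the stretch shown. CCAAT was found in all 8 windows, against 37.4% of all, and the interferon gamma-activated site TTCNNNGAA, in 8.3% of all, was in none of the 8. The Tap1 and Tapbp windows held only CCAAT among these strings. The heavy-chain stretches closely resemble each other, so their matches are not independent of one another. A match is a string of letters and not a bound site, and a missing string says only that these letters are not in the window.

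The heavy chains share sequence and locus, which limits how far their reads can be told apart. Of all windows of 76 bases (the read length) in each GENCODE transcript, 1.42% of those of H2-K1 also occurred in a transcript of another gene, 6.81% for H2-D1, 7.62% for H2-Q4, 17.4% for H2-Q6 and 27.1% for H2-Q7, against none for B2m, Tap1, Tap2 and Nlrc5 and 0.956% for Tapbp. The H2-Q6 transcript was matched by closest length and the others by RefSeq identifier. H2-Q6 and H2-Q7 shared 194 windows with each other, and H2-Q7 shared 191 with H2-Q5. The tables also hold rows for H2-Q9, H2-Q8 and H2-L that lie on the H2-Q7, H2-Q6 and H2-D1 loci, and H2-Q9 had the same reads as H2-Q7 in all 8 libraries, so these rows were not counted again. Reads of single H2-Q genes are therefore uncertain, and the sum of H2-Q4, H2-Q6 and H2-Q7, which leaves out H2-Q5, is given as well.

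The first comparison asked which members differed between CPZ and normal diet in PRMT1FL. In CD11c low microglia the 3 nonclassical heavy chains, Tap1 and Nlrc5 rose, and in CD11c high microglia H2-K1 and H2-D1 rose as well. H2-Q6 had 561 scaled reads in PRMT1FL CPZ CD11c low and 722 in CD11c high, against 130, 110 and 135 in PRMT1FL normal diet. H2-Q7 had 184 and 221, against 33.6, 16.7 and 23.6, and H2-Q4 had 555 and 772, against 326, 260 and 284. For each of the 3 genes both CPZ libraries lay above all 3 normal-diet libraries. Tested with limma on the log2 of the deposited values plus 1, over all genes, with Benjamini-Hochberg adjustment and a call at adjusted p under 0.05 and an absolute log2 fold over 1, the log2 fold in CD11c low microglia was 2.27 ± 0.17 for H2-Q6 (SE, adjusted p = 7.24e-06), 3.02 ± 0.39 for H2-Q7 (adjusted p = 0.000255) and 1.05 ± 0.14 for H2-Q4 (adjusted p = 0.000277). In CD11c high microglia it was 2.38 ± 0.17, 3.02 ± 0.38 and 1.27 ± 0.13 (adjusted p = 4.97e-07, 5.92e-05 and 1.61e-05). With the 3 genes summed the log2 fold was 1.68 in CD11c low and 1.83 in CD11c high. Both comparisons share the 3 normal-diet libraries. A group of 1 library has no spread of its own and was assumed to vary like the replicated ones.

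Of the 10 members, 5 were called higher in PRMT1FL CPZ CD11c low and none lower, where 9.33% of all genes tested were called higher and 2.95% lower. In PRMT1FL CPZ CD11c high 7 were called higher and none lower, where the shares over all genes were 7% higher and 9.3% lower. The members' median log2 fold was 0.72 in CD11c low and 1.10 in CD11c high, beside 0.08 and -0.16 over all genes tested. With median-of-ratios scaling, which removes the -0.16, the calls over all genes in CD11c high were 944 higher and 795 lower in place of 765 and 1016. H2-Q4 and Tap1 lay near the fold threshold in CD11c low: both lost the call with median-of-ratios scaling (0.95 and 0.90), H2-Q4 also without PRMT1FL normal replicate 2 (0.97) and Tap1 without replicate 1 (0.97). In CD11c high, H2-K1 lost it without replicate 2 (0.98) and Tap1 without replicate 1 (just under 1). Without the filter on low values H2-Q4 and H2-Q7 also lost the call in CD11c low (adjusted p = 0.0536 and 0.0644).

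The classical heavy chains passed the call in CD11c high cells only. H2-K1 had 826 scaled reads in PRMT1FL CPZ CD11c low and 1539 in CD11c high, against 779, 637 and 633 in PRMT1FL normal diet, and H2-D1 had 811 and 1614, against 744, 622 and 598. Their log2 folds in CD11c low, 0.39 ± 0.13 and 0.43 ± 0.12 (SE), had adjusted p = 0.0378 and 0.0249 and were under the fold threshold. In CD11c high they were 1.04 ± 0.13 and 1.17 ± 0.12 (adjusted p = 4.67e-05 and 1.63e-05). Their recovered reads were 793 and 832 in CD11c high and 1113 and 1093 in CD11c low, so the higher scaled level of CD11c high came with fewer reads in a shallower library, in the range where the duplicate ceiling acts. With a correction for the ceiling, chosen after the data were seen, their log2 folds were 0.74 and 0.73 in CD11c low. In CD11c high they were then 1.16 and 1.33.

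Among the other members, Nlrc5 (chr8:94472763-94527272, 49 exons) was called in both comparisons. It had 282 scaled reads in PRMT1FL CPZ CD11c low and 506 in CD11c high, against 54.5, 73.4 and 65.9 in PRMT1FL normal diet (log2 fold 2.23 ± 0.24 and 2.82 ± 0.22, SE, adjusted p = 7.55e-05 and 1.43e-06). Tap1 (chr17:34187556-34197225, 11 exons) had 632 and 766, against 337, 355 and 328 (log2 fold 1.00 ± 0.12 and 1.03 ± 0.12, adjusted p = 0.00014 and 2.89e-05). Its transporter partner Tap2 (chr17:34204479-34216321) had 376 and 421, against 359, 285 and 323, and was not called in either (0.34 ± 0.14 and 0.25 ± 0.14, adjusted p = 0.0966 and 0.174). Tapbp (chr17:33919478-33929290) had 936 and 1589, against 956, 895 and 825. Its log2 fold was 0.18 ± 0.11 in CD11c low (adjusted p = 0.246) and 0.69 ± 0.11 in CD11c high (adjusted p = 0.000452, under the fold threshold). B2m (chr2:122147687-122153082, 4 exons) had 429 and 1069, against 584, 543 and 441, with log2 folds of -0.16 ± 0.13 and 0.90 ± 0.13 (adjusted p = 0.386 and 0.000196), both bound by the ceiling described above. With a correction for that ceiling, chosen after the data were seen, B2m passed in CD11c high at 1.01 (adjusted p = 0.000152), and it passed with median-of-ratios scaling as well (1.04, adjusted p = 0.000569).

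**Figure D3:**
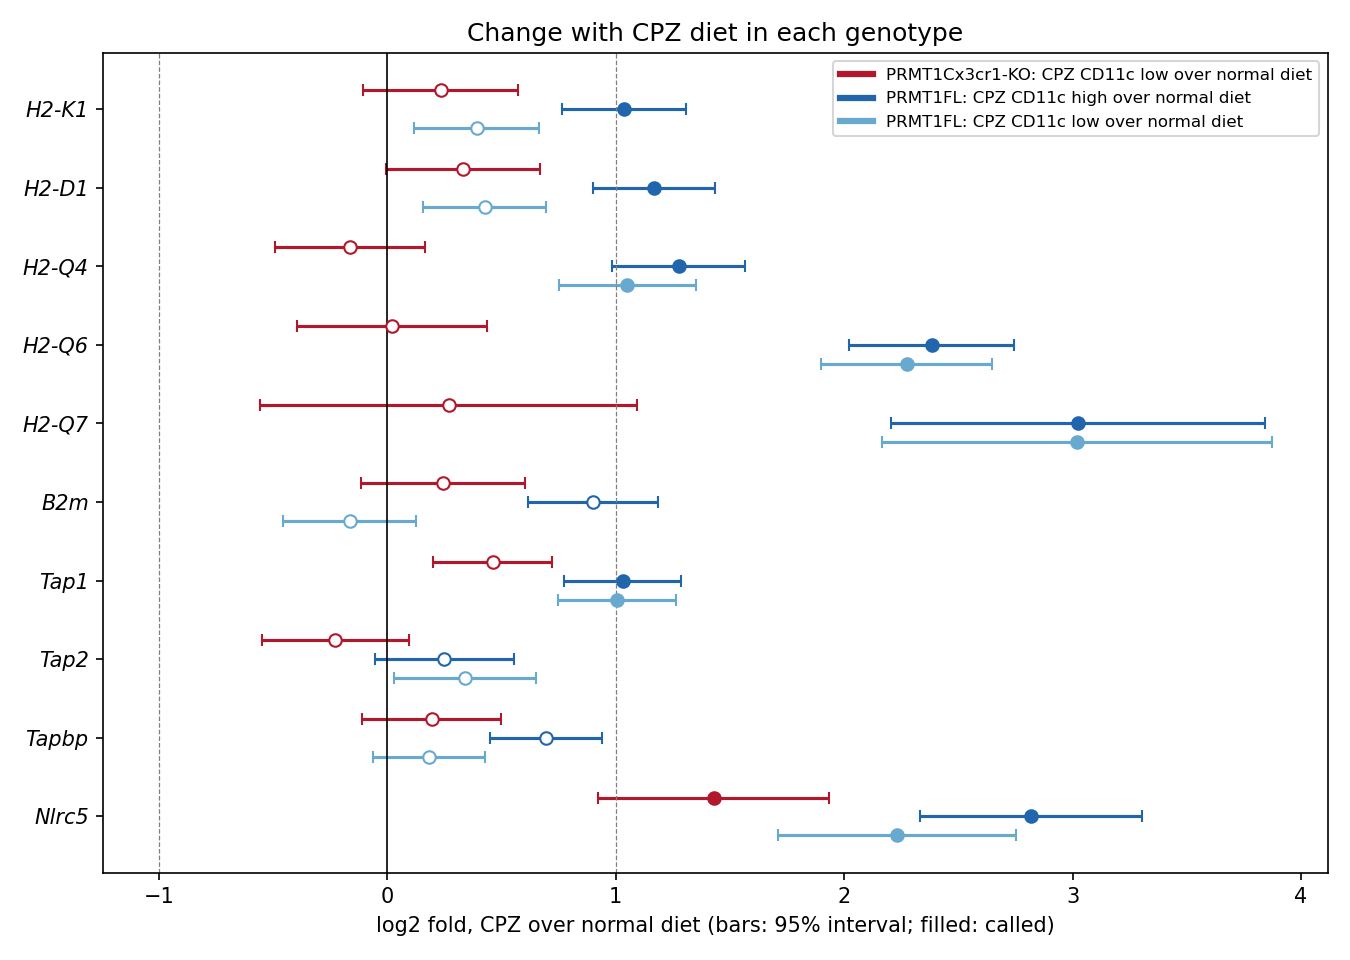
Log2 fold of CPZ over normal diet (horizontal axis, with 95% intervals) for each member in PRMT1Cx3cr1-KO CD11c low, PRMT1FL CD11c high and PRMT1FL CD11c low; filled points passed the call and dashed lines mark a 2-fold change. H2-Q6 is at 0.02 in PRMT1Cx3cr1-KO against 2.38 and 2.27 in PRMT1FL, while Nlrc5 passed in all 3 comparisons. The PRMT1FL folds use the deposited scaling and the PRMT1Cx3cr1-KO folds the fit of the 8 libraries. In that fit H2-Q4 and Tap1 in PRMT1FL CD11c low were at 0.94 and 0.89, not called.

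The same diet comparison in PRMT1Cx3cr1-KO, in CD11c low cells, asked whether the members moved in that genotype. It used 1 fit of the 8 libraries with median-of-ratios scaling, whereas the PRMT1FL comparisons used the deposited scaling. Only Nlrc5 was called, with 198 scaled reads in PRMT1Cx3cr1-KO CPZ CD11c low against 84.6 and 62.6 in PRMT1Cx3cr1-KO normal diet (log2 fold 1.43 ± 0.23, SE, adjusted p = 0.00224, limma over the 8 libraries). Over all genes 5.11% were called higher and 3.38% lower. H2-Q6 had 159, against 136 and 181 (log2 fold 0.02 ± 0.19, 95% interval -0.40 to 0.44). H2-Q4 had 315, against 334 and 372 (-0.16 ± 0.15, interval -0.49 to 0.17), and H2-Q7 had 53.0, against 38.4 and 49.9 (0.27 ± 0.37, interval -0.56 to 1.09). The PRMT1Cx3cr1-KO CPZ value thus lay inside the range of its normal-diet libraries for H2-Q6, below both for H2-Q4 and above both for H2-Q7. Tap1 had 448, against 335 and 316, above both normal-diet libraries (0.46 ± 0.12, adjusted p = 0.0224, under the fold threshold). Without the filter on low values the adjusted p of Nlrc5 was 0.0726. The remaining log2 folds were between -0.23 and 0.33, with adjusted p of at least 0.154.

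Whether the diet response differed between the genotypes was tested as an interaction, the CPZ change of PRMT1Cx3cr1-KO minus that of PRMT1FL, both in CD11c low cells and each over the normal-diet libraries of its own genotype. It was called for all 3 nonclassical heavy chains, with log2 differences of -2.14 ± 0.26 for H2-Q6 (SE, adjusted p = 0.0105), -2.64 ± 0.51 for H2-Q7 (adjusted p = 0.0492) and -1.10 ± 0.20 for H2-Q4 (adjusted p = 0.0404). Over all 11220 genes tested the interaction was called lower for 0.722% and higher for 0.143%. No other member passed: Nlrc5 was at -0.69 ± 0.31 (adjusted p = 0.288), Tap1 at -0.43 ± 0.16 (0.214), H2-K1 at -0.05 ± 0.21 (0.937) and H2-D1 at 0.02 ± 0.21 (0.978). Those shares rest on 97 genes in all, which became 200 without PRMT1FL replicate 1, 32 without PRMT1FL replicate 2, 59 without PRMT1Cx3cr1-KO replicate 1 and 20 without PRMT1Cx3cr1-KO replicate 2. The H2-Q6 call held with any 1 normal-diet library left out (adjusted p between 0.00483 and 0.0392). H2-Q4 and H2-Q7 lost theirs without PRMT1FL replicate 2 (adjusted p = 0.0801 and 0.0605), PRMT1FL replicate 3 (0.059 and 0.0619), PRMT1Cx3cr1-KO replicate 1 (0.0574 and 0.0584) or PRMT1Cx3cr1-KO replicate 2 (0.117 and 0.123). H2-Q7 also lost its call with TMM scaling (adjusted p = 0.0546) and with a pseudocount of 0.5 (0.0534). With the reads of the 3 genes summed the difference was -1.64 (adjusted p = 0.0159). Part of these differences lies in the normal-diet libraries, where the 3 genes leaned higher in PRMT1Cx3cr1-KO, with none called. Without the filter on low values none of the 3 passed (adjusted p = 0.0599 for H2-Q6, 0.129 for H2-Q4 and 0.175 for H2-Q7). With the correction for the duplicate ceiling, chosen after the data were seen, H2-K1 was at -0.38 and H2-D1 at -0.24, neither called.

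The direct comparison of the genotypes on CPZ in CD11c low cells set 1 library against 1, with the spread taken from the normal-diet libraries. H2-Q6 was called lower in PRMT1Cx3cr1-KO, with 168 recovered reads against 756 in PRMT1FL (log2 fold -1.81 ± 0.22, SE, adjusted p = 0.0056; the exact 95% counting interval of the ratio was 0.238 to 0.335). H2-Q7 had 56 against 248 (-1.78 ± 0.43, adjusted p = 0.0501) and H2-Q4 had 333 against 748 (-0.81 ± 0.17, adjusted p = 0.0356), and neither met both limits of the call. H2-Q7 was called without PRMT1FL replicate 1 (adjusted p = 0.0161) or PRMT1FL replicate 2 (0.0453), but not without PRMT1FL replicate 3 (0.0779). Its log2 fold was -1.78 without PRMT1Cx3cr1-KO replicate 1 or replicate 2. With each of the 5 normal-diet libraries left out in turn it lay between -1.78 and -1.77. None of these libraries enters the fold itself. Leaving one out changes only the scaling and the borrowed spread, so it is no check of the fold. The 3 genes summed gave -1.30 (adjusted p = 0.0128). Without the filter on low values H2-Q6 had an adjusted p of 0.0574. Over all genes 1.2% were called lower and 0.971% higher, that is 135 and 109, or 202 and 83 when libraries were scaled to a common total, and the 244 calls in all became 486 without PRMT1FL replicate 1 and 160 without PRMT1FL replicate 2. H2-K1, H2-D1 and Tapbp differed by -0.03, -0.03 and -0.02, with 95% intervals of -0.42 to 0.36, -0.41 to 0.36 and -0.37 to 0.33. With the correction for the duplicate ceiling these 3 differences were -0.25, -0.21 and -0.11. Nlrc5 (-0.51 ± 0.26), Tap1 (-0.49 ± 0.14), Tap2 (-0.38 ± 0.17) and B2m (0.24 ± 0.19) had adjusted p between 0.0657 and 0.502.

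Markers of other cells differed between these 2 libraries and are given for that reason. The 8 endothelial and mural markers summed to 864 scaled reads in PRMT1Cx3cr1-KO CPZ CD11c low, 959 in PRMT1FL CPZ CD11c high and 1204 in PRMT1FL CPZ CD11c low, against 446 to 496 in PRMT1Cx3cr1-KO normal diet and 397 to 428 in PRMT1FL normal diet, with none at 0. Flt1, which encodes a receptor for vascular endothelial growth factor, alone gave 532, 594 and 451 of these, against 31.3 to 37.6 and 20.9 to 29.3. The other 7 markers summed to 332 in PRMT1Cx3cr1-KO CPZ CD11c low and 365 in PRMT1FL CPZ CD11c high, below every normal-diet library (415 to 459 and 377 to 400.3), and to 753 in PRMT1FL CPZ CD11c low, above all of them. The 5 neutrophil markers summed to 5.68 scaled reads in PRMT1Cx3cr1-KO CPZ CD11c low (S100a9, Ly6g and Camp at 0), to 44.6 in PRMT1FL CPZ CD11c high and 532 in PRMT1FL CPZ CD11c low, against 190 to 260 and 249 to 445 in the normal-diet groups. In the same order of the 3 CPZ libraries, H2-Q6 had 159, 722 and 561 scaled reads. The 6 oligodendrocyte markers (803, 993 and 1501, against 1118 to 1285 and 928 to 1209) and the 6 astrocyte markers (742, 788 and 1085, against 1043 to 1128 and 872 to 925) were also highest or next to highest in PRMT1FL CPZ CD11c low, with no marker at 0. The 6 monocyte and border macrophage markers summed to 311, 173 and 392, against 495 to 622 and 350 to 573. The part of these cells in the result was not tested. Of 8 lymphocyte markers in the tables, Cd3d, Cd8a and Ncr1 were at 0 in all 8 libraries, and the list held 21 reads or fewer in each.

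The composition of the heavy chains was followed as the share of H2-Q4, H2-Q6 and H2-Q7 in the reads of the 5 heavy-chain members. It was 24.7% in PRMT1Cx3cr1-KO CPZ CD11c low (exact 95% interval 22.9 to 26.5), 35.2% in PRMT1FL CPZ CD11c high (33.4 to 37.1) and 44.3% in PRMT1FL CPZ CD11c low (42.7 to 45.8), against 28.3% and 30.7% in PRMT1Cx3cr1-KO normal diet and 24.3%, 23.5% and 26.5% in PRMT1FL normal diet. The share on CPZ lay above all normal-diet libraries in PRMT1FL and below both in PRMT1Cx3cr1-KO. These intervals cover counting error only. H2-K1, the denominator gene nearest the duplicate ceiling, was at 0.68 reads per base in PRMT1FL CPZ CD11c low, its highest of the 8 libraries, and the part of the ceiling in that share was not tested.

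**Figure D4:**
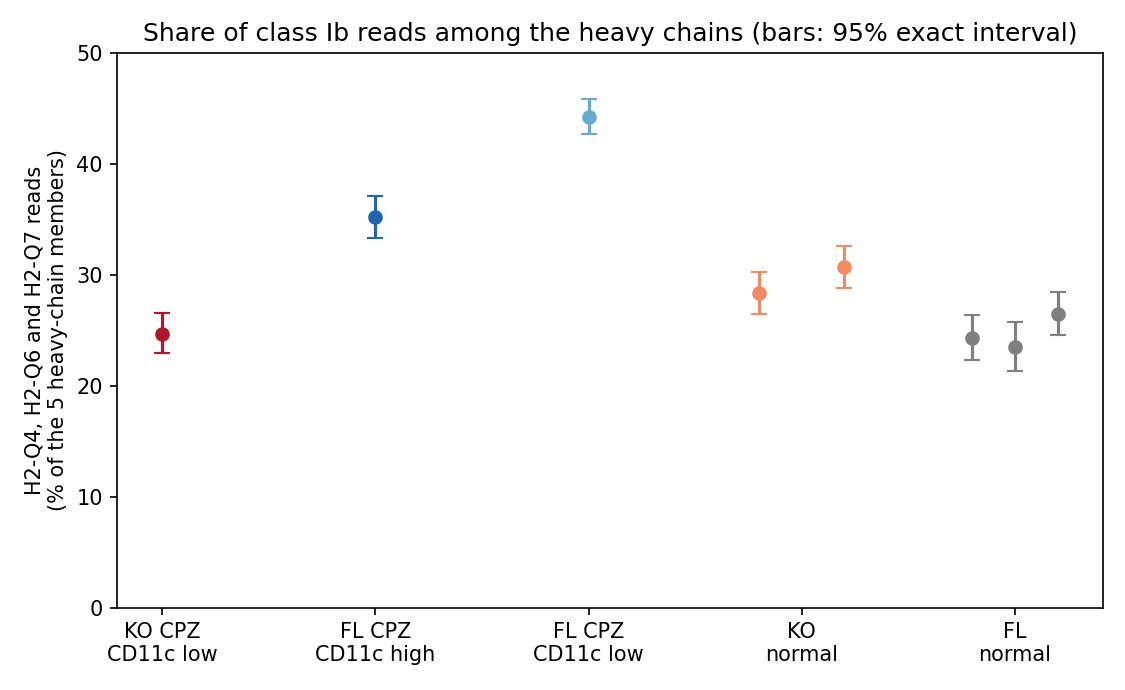
Share of H2-Q4, H2-Q6 and H2-Q7 reads (vertical axis, % of the reads of the 5 heavy-chain members) in each library, by group; bars are exact 95% intervals for counting error. The PRMT1FL CPZ libraries are at 35.2% and 44.3%, and the other 6 libraries lie between 23.5% and 30.7%.

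Both further comparisons involved the PRMT1FL CPZ CD11c high library. Set against PRMT1FL CPZ CD11c low, only B2m was called higher (log2 fold 1.32 ± 0.19, SE, adjusted p = 0.00748), on 551 reads in CD11c high and 578 in CD11c low. H2-D1 (0.99 ± 0.17, adjusted p = 0.0159), H2-K1 (0.90 ± 0.18, 0.0259) and Tapbp (0.76 ± 0.16, 0.032) were under the fold threshold, and H2-Q6 and H2-Q7 were at 0.36 ± 0.22 and 0.26 ± 0.43 (0.348 and 0.759). All 10 members were above 0, with a median of 0.62 beside 0.02 over all genes, where 0.686% were called higher and 1.24% lower. That split, 77 against 139, became 12 against 293 when libraries were scaled to a common total, under which Tap2 turned from 0.16 to -0.09. The 216 calls became 366 without PRMT1FL normal replicate 1 and 135 without replicate 2, and B2m lost its call without the filter on low values (adjusted p = 0.0624). PRMT1Cx3cr1-KO CPZ CD11c low set against PRMT1FL CPZ CD11c high, which also differ by gate, had 6 members called lower: H2-Q6 (-2.18 ± 0.22, adjusted p = 0.000457), H2-Q7 (-2.04 ± 0.43, 0.0207), Nlrc5 (-1.35 ± 0.26, 0.0155), H2-Q4 (-1.29 ± 0.17, 0.00231), B2m (-1.08 ± 0.19, 0.00982) and H2-D1 (-1.02 ± 0.17, 0.0093). Over all genes 1.36% were called lower and 2.48% higher, that is 153 and 278, or 92 and 402 with the common total, under which B2m (-0.94) and H2-D1 (-0.88) fell short of the fold threshold. B2m had 535 recovered reads in PRMT1Cx3cr1-KO CPZ CD11c low against 551, and H2-D1 had 842 against 832. Their folds thus come almost wholly from the size factors (1.06 and 0.515), in the range where the duplicate ceiling acts. Without the filter on low values only H2-Q6 and H2-Q4 stayed called. H2-Q4, H2-Q6 and H2-Q7 summed gave 0.40 for PRMT1FL CPZ CD11c high over low. Their sum gave -1.70 for PRMT1Cx3cr1-KO CPZ CD11c low over PRMT1FL CPZ CD11c high.

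On normal diet no member was called between PRMT1Cx3cr1-KO and PRMT1FL. Of all 11086 genes tested with limma 0% were called higher and 0% lower, with 973 at an unadjusted p under 0.05, while edgeR called 0 and DESeq2 called 7, no member among them. Among the members 3 had an unadjusted p under 0.05. H2-Q7 had 38.4 and 49.9 scaled reads in PRMT1Cx3cr1-KO against 33.6, 16.7 and 23.6 in PRMT1FL (log2 fold 0.88 ± 0.32, SE, adjusted p = 0.455), H2-Q4 was at 0.31 ± 0.11 (0.453) and B2m at -0.26 ± 0.10 (0.5). In H2-Q7 and H2-Q4 both PRMT1Cx3cr1-KO libraries lay above all 3 PRMT1FL libraries, the direction opposite to that seen on CPZ. H2-Q4, H2-Q6 and H2-Q7 summed gave a log2 fold of 0.36, not called. Tap1 (-0.04 ± 0.09) and H2-K1 (0.04 ± 0.09) were near 0, with 95% intervals of -0.24 to 0.16 and -0.17 to 0.24.

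The wider pathway was read through gene lists chosen with earlier results of these data known. Over all genes, 9.33% were called higher and 2.95% lower on CPZ in PRMT1FL CD11c low. The shares were 7% and 9.3% in PRMT1FL CD11c high, and 5.11% and 3.38% in PRMT1Cx3cr1-KO CD11c low. For PRMT1Cx3cr1-KO CPZ CD11c low they were 0.971% and 1.2% over PRMT1FL CPZ CD11c low, and 2.48% and 1.36% over PRMT1FL CPZ CD11c high. Of 15 other class I heavy chains with rows of their own only 6 passed the filter, and 4 of these rose both in PRMT1FL CPZ CD11c low and in CD11c high: H2-T22 (log2 fold 1.19 and 1.48), H2-M3, which presents formylated peptides (1.06 and 1.05), H2-Q5 (2.08 and 1.70) and H2-T10 (1.92 and 1.43). H2-T23, which encodes Qa-1, was at 0.56 and 0.84 and H2-T24 at 0.42 and 0.13, neither called. The median of the 6 was 1.123 in CD11c low and 1.24 in CD11c high, beside 0.08 and -0.16 over all genes. In PRMT1Cx3cr1-KO CPZ CD11c low over its normal diet none of the 6 was called (median 0.37), and the interaction was called for none (median -0.46 beside 0.05 over all genes). H2-M3 and H2-T22 were called lower in PRMT1Cx3cr1-KO CPZ CD11c low than in PRMT1FL CPZ CD11c high (-1.08 and -1.14). H2-T3, H2-M9, H2-M10.1 and H2-Q1 had 0 reads in all 8 libraries, which allows up to 3 reads in each.

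Among the genes of the proteasome, which cuts the peptides, none of 6 immunoproteasome and activator genes was called in any of the 8 comparisons, with medians of 0.55 in PRMT1FL CPZ CD11c high and 0.79 in CD11c low, beside -0.16 and 0.08 over all genes. Psmb8, an inducible catalytic subunit, came nearest at 0.97 ± 0.19 in PRMT1FL CPZ CD11c low and 0.96 ± 0.18 in CD11c high (SE, adjusted p = 0.00301 and 0.00121), against 0.48 ± 0.16 in PRMT1Cx3cr1-KO CPZ CD11c low (adjusted p = 0.0647). Among the constitutive catalytic subunits, which the inducible ones replace, Psmb6 was called higher in PRMT1FL CPZ CD11c low (1.31 ± 0.22, adjusted p = 0.00139). The inducible subunits Psmb8, Psmb9 and Psmb10 made up 55.0% of the catalytic subunit reads in PRMT1Cx3cr1-KO CPZ CD11c low, 60.9% in PRMT1FL CPZ CD11c high and 57.6% in PRMT1FL CPZ CD11c low, against 57.6% to 58.6% and 57.8% to 61.7% in the normal-diet groups. The share in PRMT1Cx3cr1-KO CPZ CD11c low was the lowest of all libraries. Their exact 95% intervals overlapped throughout, but overlap is not a test of a difference. A shift between the proteasome forms was not tested.

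Of 11 loading and trimming partners, Cybb, which encodes an oxidase subunit used in cross-presentation, was called higher on CPZ in PRMT1Cx3cr1-KO CD11c low (2.42), PRMT1FL CD11c high (3.16) and PRMT1FL CD11c low (2.02). The endoplasmic reticulum chaperones Canx and Hspa5 were called in none of the 8 comparisons. Lnpep, an aminopeptidase of the cross-presenting endosome, was lower in PRMT1FL CPZ CD11c low than in PRMT1FL normal diet (-1.28) and higher in PRMT1Cx3cr1-KO than in PRMT1FL in CPZ CD11c low (1.89). Among the transcription partners of class I genes, the coactivators Ep300 and Crebbp were called in no comparison. Of 8 interferon receptor and kinase genes tested only the feedback inhibitor Socs1 was called, lower on CPZ in PRMT1Cx3cr1-KO CD11c low (-1.46) and in PRMT1FL CD11c high (-1.34). Jak1 and Ifngr1 were called in none.

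Binding of class I was not tested for the 3 immune receptor genes read here. The inhibitory receptor gene Lilrb4a rose on CPZ in PRMT1Cx3cr1-KO CD11c low (2.87), PRMT1FL CD11c high (3.44) and PRMT1FL CD11c low (2.59), and Lilr4b rose in the same 3 comparisons (2.00, 2.43 and 1.92). Pirb was called in none. Over all genes, 5.11%, 7% and 9.33% were called higher in these 3 comparisons. Of 5 class I-like genes tested, Procr rose in all 3 (1.49, 1.46 and 2.44) and Cd1d1 fell by 1.39 in PRMT1FL CPZ CD11c high, while Fcgrt and Hfe were not called in any. Of 10 MHC class II genes, 4 were called lower in PRMT1Cx3cr1-KO than in PRMT1FL in CPZ CD11c low, where 1.2% of all genes were called lower. These were Cd74 (-1.12), H2-Aa (-1.88), H2-Ab1 (-1.16) and H2-Eb1 (-2.18), with a median of -1.14 over the 10 beside 0.03 over all genes. H2-Aa and H2-Eb1 were called lower in PRMT1Cx3cr1-KO CPZ CD11c low than on its normal diet as well (-1.41 and -1.54), whereas no class I member was called lower there.

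Genes outside the pathway with the most similar pattern were found among 8501 genes with a mean of at least 50 scaled reads, as those with the smallest root mean square difference in log2(scaled reads + 1), centred over the 8 libraries. Nearest to the mean profile of the 10 members were Plekhm2 (0.11), Cxcl16 (0.12), Tmem189 (0.13), Ifih1 (0.13) and Rnf149 (0.13). Nearest to Nlrc5 alone were Anxa5 (0.14), Ifitm3 (0.21), Usp18 (0.21), Rap2b (0.23) and Rell1 (0.24). Ifih1 encodes a sensor of viral RNA, and Ifitm3 and Usp18 are interferon-induced genes. Anxa5 had 234 scaled reads in PRMT1Cx3cr1-KO CPZ CD11c low, 431 in PRMT1FL CPZ CD11c high and 249 in PRMT1FL CPZ CD11c low, against 79.95 and 64.3 in PRMT1Cx3cr1-KO normal diet and 51.0, 77.8 and 65.95 in PRMT1FL normal diet. These points share libraries, size factors and depth, and likeness over 8 libraries says nothing of shared control.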

How the data were processed

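Bulk RNA-seq libraries of sorted microglia were read as single ends of 76 bases. The submitters' processing notes name FastQC 0.11.9, Bowtie2, SAMtools 0.1.19, HOMER and DESeq2, duplicate reads were removed, and coordinates follow GRCm38. The strand setting used in counting is not given in the sources used here. The authors deposited 6 tables of normalised read counts per gene (unit signal), each comparing a pair of groups, whose values are whole reads scaled to a common total within the table. This differs from the size-factor scaling assumed when the tests were planned. Columns with the authors' own log2 fold changes, p-values and adjusted p-values were not used, and 0 columns belonged to no sample. Whole reads were recovered from the step size of the low values. PRMT1FL normal replicate 1 did not come out whole in 1 table, so its reads were taken from another.

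The log2 of the value plus a pseudocount of 1 was tested with limma 3.58.1 in R 4.3.3 (trend, two-sided, Benjamini-Hochberg adjustment) over genes with a mean of at least 10. A gene was called at adjusted p under 0.05 with an absolute log2 fold over 1. Normal-diet genotypes and PRMT1FL CPZ over normal diet were fitted within their deposited table. The other 5 comparisons used 1 fit of the 8 libraries on reads scaled by median of ratios. The procedure was also run on simulated reads. Every simulated library had the same spread and there was no duplicate ceiling. That run therefore cannot check the spread assumed for the lone CPZ libraries. Alternatives were edgeR 4.0.16 and DESeq2 1.42.0 on recovered reads, TMM, median-of-ratios and common-total scaling, other pseudocounts, no filter, each normal-diet library left out, a replicate block, summed H2-Q reads and, chosen after the data were seen, a correction for duplicate removal that takes every base of a transcript as a possible read start. Shares of counts have exact (Clopper-Pearson) 95% intervals, which cover counting error only. Sequences and promoter windows are from RefSeq (GRCm38.p6). The genes named are the 10 members, from each wider list up to 4 called genes and up to 2 not called with the highest mean in a comparison, and the 5 nearest genes by likeness. The members and lists were chosen with earlier results of these data known. Part of the results for the transcription partners is not reported here.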

Additional observations from a re-analysis of the deposited data

Results flagged for a closer look

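The CPZ response of the 3 nonclassical heavy chains differed between the genotypes by a test of the difference itself, with PRMT1Cx3cr1-KO below PRMT1FL. The log2 difference was -2.14 for H2-Q6 (limma, adjusted p = 0.0105), -2.64 for H2-Q7 (adjusted p = 0.0492) and -1.10 for H2-Q4 (adjusted p = 0.0404). With any 1 normal-diet library left out it lay between -2.35 and -1.93 for H2-Q6, which passed each time, between -2.88 and -2.39 for H2-Q7 and between -1.19 and -1.02 for H2-Q4, which both passed only without PRMT1FL replicate 1. H2-Q7 also missed the threshold with TMM scaling (adjusted p = 0.0546) and a pseudocount of 0.5 (0.0534), and none of the 3 passed without the filter on low values (0.0599 for H2-Q6, 0.175 for H2-Q7 and 0.129 for H2-Q4). Each genotype had 1 CPZ library in this test. Part of the difference lies in the normal-diet libraries. There PRMT1Cx3cr1-KO over PRMT1FL was at 0.35 for H2-Q6, 0.88 for H2-Q7 and 0.31 for H2-Q4, none called. In CPZ CD11c low it was at -1.81, -1.78 and -0.81, with only H2-Q6 called.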

How the results depend on the processing

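Of 1114 alternative values of the 80 member folds, 1032 kept their direction and their side of the call, 40 lost a call, 18 gained one and 24 changed sign. The sign changes were in 12 folds that were not called, at most 0.27 in size, and none of the 24 called folds changed sign under 325 alternatives. Many of these could hardly change a sign. Dropping the filter leaves every fold as it was, and leaving out a normal-diet library barely moves a fold between CPZ libraries. No alternative left out a lone CPZ library. Members called in PRMT1FL CPZ CD11c low over normal diet numbered 3 in place of 5 with DESeq2, edgeR, the joint fit, median-of-ratios scaling, TMM or no filter. For PRMT1Cx3cr1-KO over PRMT1FL in CPZ CD11c low they numbered 2 in place of 1 with common-total scaling, TMM, DESeq2, edgeR or a pseudocount of 5, 3 with the ceiling correction and 0 with no filter, and 1 to 2 with a library left out. Without the filter 0 in place of 1 were called in PRMT1FL CD11c high over low and in PRMT1Cx3cr1-KO CPZ over normal diet, 2 in place of 6 in PRMT1Cx3cr1-KO CPZ CD11c low over PRMT1FL CPZ CD11c high, and 0 in place of 3 in the interaction, which had 1 to 3 with a library left out. The cause was not tested.

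Over all genes, the interaction had 97 calls, against 233 with edgeR, 288 with no filter and 20 to 200 with a library left out. PRMT1FL CD11c high over low had 216, against 76 with DESeq2, 573 with no filter and 135 to 366 with a library left out. PRMT1Cx3cr1-KO over PRMT1FL in CPZ CD11c low had 244, against 128 with DESeq2, 464 with edgeR and 160 to 486. PRMT1Cx3cr1-KO CPZ CD11c low had 431 over PRMT1FL CPZ CD11c high, against 185 with DESeq2, and 952 over its normal diet, against 495 with no filter. Normal-diet genotypes had 0, against 7 with DESeq2 and 0 to 47 with a library left out.

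Replicate numbers are shared by the normal-diet genotypes. Deviations of same-numbered libraries from their group mean correlated at 0.041 and -0.0297, which cannot show whether they share a batch. The 2 PRMT1Cx3cr1-KO libraries mirror each other around their mean, so the 2 values are not separate checks. With a replicate block the interaction had 259 calls over all genes and the normal-diet genotypes had 3, H2-K1 in the interaction was at 0.0046 and H2-Q6 in PRMT1Cx3cr1-KO CPZ over normal diet at -0.038. A block was not possible in the PRMT1FL tables, which hold 1 CPZ library each.

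The other sign changes were as follows. In the interaction H2-D1 was at -0.11 with common-total scaling, -0.017 with DESeq2, -0.013 with edgeR, -0.24 with the ceiling correction and -0.079 to 0.079 with a library left out, H2-K1 at -0.14 to 0.0069 with a library left out, and Tapbp at -0.0057 with common-total scaling. In PRMT1Cx3cr1-KO over PRMT1FL in CPZ CD11c low, TMM gave 0.013 for H2-D1, 0.012 for H2-K1 and 0.018 for Tapbp. Between normal-diet genotypes H2-D1 was at 0.042 with the ceiling correction. In PRMT1Cx3cr1-KO CPZ over normal diet summed H2-Q reads gave -0.071, beside 0.02 for H2-Q6 and 0.27 for H2-Q7, and in PRMT1FL CD11c high over low Tap2 was at -0.089 with common-total scaling. With a library left out, H2-D1 and H2-K1 between normal-diet genotypes ranged from -0.071 to 0.048 and from -0.014 to 0.11, Nlrc5 from -0.0079 to 0.41, and H2-Q6 in PRMT1Cx3cr1-KO CPZ over normal diet from -0.19 to 0.23.

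The 3 CPZ groups have 1 library each, so their spread was borrowed from normal diet, and the PRMT1FL CPZ CD11c high library had the fewest reads.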

Other observations

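The row named H2-K2, which was in none of the lists and was chosen after its values were seen, lay lowest in the PRMT1Cx3cr1-KO CPZ CD11c low library. It had 109 scaled reads there, 186 in PRMT1FL CPZ CD11c high and 299 in PRMT1FL CPZ CD11c low, against 288 and 353 in PRMT1Cx3cr1-KO normal diet and 315, 210.2 and 280.1 in PRMT1FL normal diet. Since this low value is what picked the row, no test of it is given. H2-D1 shared 34 windows of 76 bases with it and H2-Q4 shared 21, so its reads are uncertain.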
